A study of Mus musculus with 2 samples.

Results

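Barcodes that held RNA of the complement component C1q together with RNA of the basal keratins were followed in single-cell libraries of the mouse cervix. A barcode stands for 1 droplet and its content, and a unique molecular identifier (UMI) for 1 captured RNA molecule. Of 13981 barcodes that passed a filter of 200 genes or more and no more than 20% mitochondrial UMIs, 178 had at least 3 UMIs of C1qa, C1qb and C1qc together and at least 3 of Krt5 and Krt14 together. They are called double-positive barcodes here, and 26 of 4760 came from the control library and 152 of 9221 from the progesterone library. References come from the same libraries: C1q barcodes, with at least 3 C1q UMIs and at most 2 keratin UMIs (127 control and 246 progesterone), and keratin barcodes, with at least 3 keratin UMIs and at most 2 C1q UMIs (3728 and 6681). Both libraries were made from ovariectomised C57BL6/129 females aged 7 to 8 weeks, with 9 mice pooled in each. The control mice were left untreated. The treated mice had 2 daily subcutaneous doses of 100 µg estradiol (E2), followed by a progesterone pellet of 25 mg that released about 1 mg daily, so estradiol, injection and pellet go with progesterone and cannot be told apart from it. With 1 library per group and classes defined by the measured RNA, every value below is a description with no test, and each interval is an exact 95% interval that covers counting error only.

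C1q is the recognition part of the classical complement pathway, and tissue macrophages are a main source of its 3 chains. Macrophages also clear dying cells by taking them up into lysosomes, and they show peptides to T cells on MHC class II with the help of Cd74. Krt5 and Krt14 pair into the filaments of basal cells in stratified squamous epithelium, the lining of the outer cervix, and macrophages do not normally make them. Langerhans cells are macrophage-related cells that sit inside squamous epithelium, carry MHC class II and are marked by Cd207, so a C1q and keratin signal in 1 barcode invites a look at their genes too.

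The genes of the rule lie apart from each other in the genome, with C1qa at chr4:136895917-136898803, C1qb at chr4:136880129-136886187 and C1qc at chr4:136889804-136893065 in 1 cluster, Krt5 at chr15:101707070-101712898 and Krt14 at chr11:100203162-100207548, all protein-coding genes on the minus strand (GRCm38, GENCODE M21). The libraries held 5368 and 10853 deposited barcodes with 21658684 and 44811069 UMIs for control and progesterone, and their median depth after the filter was 3714 and 4215 UMIs. The libraries shared 19 barcode sequences, of which 1 was double-positive in each library and none in both.

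C1q and keratin RNA met in the same barcode more often in the progesterone library. Double-positive barcodes made up 17.0% (95% interval 11.4 to 23.9) of the 153 C1q-positive barcodes of the control library and 38.2% (33.4 to 43.2) of the 398 of the progesterone library. Seen from the epithelial side, they were 0.693% (0.453 to 1.01) of 3754 keratin-positive barcodes in control and 2.22% (1.89 to 2.60) of 6833 in progesterone. After each barcode was thinned to 2000 UMIs, which left out 100 control and 181 progesterone barcodes that were shallower, 15 of 53 C1q-positive barcodes in control (28.3%, 16.8 to 42.3) and 109 of 217 in progesterone (50.2%, 43.4 to 57.1) still had 3 keratin UMIs. The order of the libraries was the same with keratin counted at equal depth, while C1q was called at full depth. With at least 10 keratin UMIs the unthinned shares were 9.80% and 27.4%. With at least 3 keratin UMIs they were 28.3% and 58.5% over barcodes of at least 2000 UMIs.

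Both limits of the rule run through a continuum. Among C1q-positive barcodes of the progesterone library, 142 had no keratin UMI, 72 had 1, 32 had 2, 19 had 3 and 8 had 4; the counts in control were 70, 43, 14, 6 and 2. Among keratin-positive barcodes of the progesterone library, 6350 had no C1q UMI, 268 had 1, 63 had 2, 41 had 3 and 29 had 4. Cd74, the MHC class II chaperone, was found in 5.80% of those with no C1q UMI, in 48.5% with 1, in 77.8% with 2 and in 97.6% with 3, at median depths of 4787, 4904, 5009 and 6095 UMIs. In keratin barcodes with only 1 or 2 C1q UMIs, just outside the rule, MHC class II RNA was therefore already frequent.

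**Figure D1:**
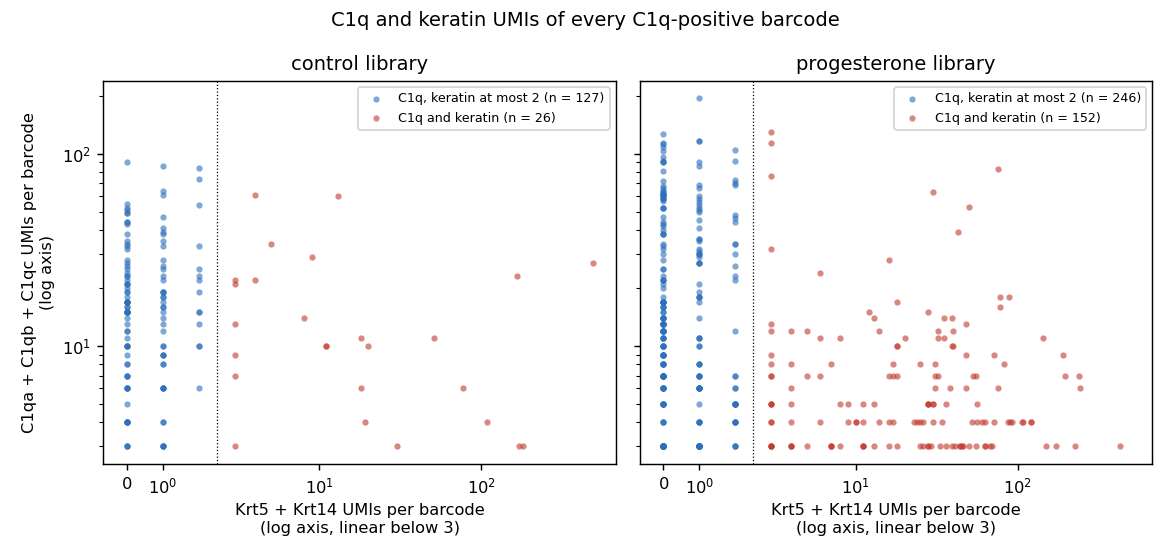
Every C1q-positive barcode is 1 point, with its Krt5 and Krt14 UMIs on the x axis (log, linear below 3) and its C1q UMIs on the y axis (log); the dotted line separates C1q barcodes (blue) from double-positive barcodes (red). In the progesterone library the red points gather at low C1q, with a median of 5 UMIs, and spread over keratin counts up to 428.

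The double-positive barcodes were deep, and in the progesterone library they were as deep as epithelial ones. The rule asks for at least 3 raw UMIs of each of 2 gene sets, which deep barcodes reach more easily. C1q barcodes are capped at 2 keratin UMIs, so the rule itself favours this order, and its part in the depth was not tested. Median depth in control was 2879 UMIs in double-positive barcodes (lowest 560, highest 13429), 1390 in C1q barcodes and 4664 in keratin barcodes. In progesterone the medians were 4865 (lowest 517, highest 18130), 1193 and 4793 UMIs. Double-positive barcodes thus had 2.07 times the median depth of C1q barcodes in control and 4.08 times in progesterone. The control ratio was 3.26 with at least 10 keratin UMIs and 1.38 without the highest doublet scores. The progesterone ratio was 2.45 under limits of 500 genes and 10% mitochondrial UMIs and 1.66 over barcodes of at least 2000 UMIs. Genes detected followed the same order, with medians of 1248, 735 and 1604 in control and 1673, 574 and 1615 in progesterone. Mitochondrial UMIs made up a median of 6.40%, 4.04% and 5.38% in control and 5.54%, 4.01% and 6.23% in progesterone.

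Their RNA of the rule genes was set unevenly. The median number of C1q UMIs was 10.5 in double-positive against 16 in C1q barcodes in control, and 5 against 12 in progesterone. The median number of keratin UMIs was 12 in double-positive against 36 in keratin barcodes in control, and 27 against 27 in progesterone. These genes chose the barcodes, so other genes of the same cell types were read next.

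A list of 15 macrophage core genes and a list of 13 basal epithelial genes, neither holding a rule gene, placed the 2 libraries differently. The core list gave a median of 22 UMIs per double-positive barcode in control, beside 25 in C1q and 1 in keratin barcodes; 13 of 26 reached the C1q-barcode median. In progesterone the medians were 6, 19 and 0, and 17 of 152 (11.2%) reached the C1q-barcode median. The basal list, with the transcription factor Trp63, the keratin Krt15 and hemidesmosome genes such as Col17a1, gave 8.5 UMIs per double-positive barcode in control beside 24 in keratin barcodes, and 18 beside 22 in progesterone. There, 65 of 152 (42.8%) reached the keratin-barcode median, against 7 of 26 (26.9%) in control. By these lists the progesterone barcodes held an epithelial amount of epithelial RNA and a small amount of macrophage RNA, so a label as macrophages carrying some keratin fits them less well than the control barcodes, and they are named here by what they contain.

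**Figure D2:**
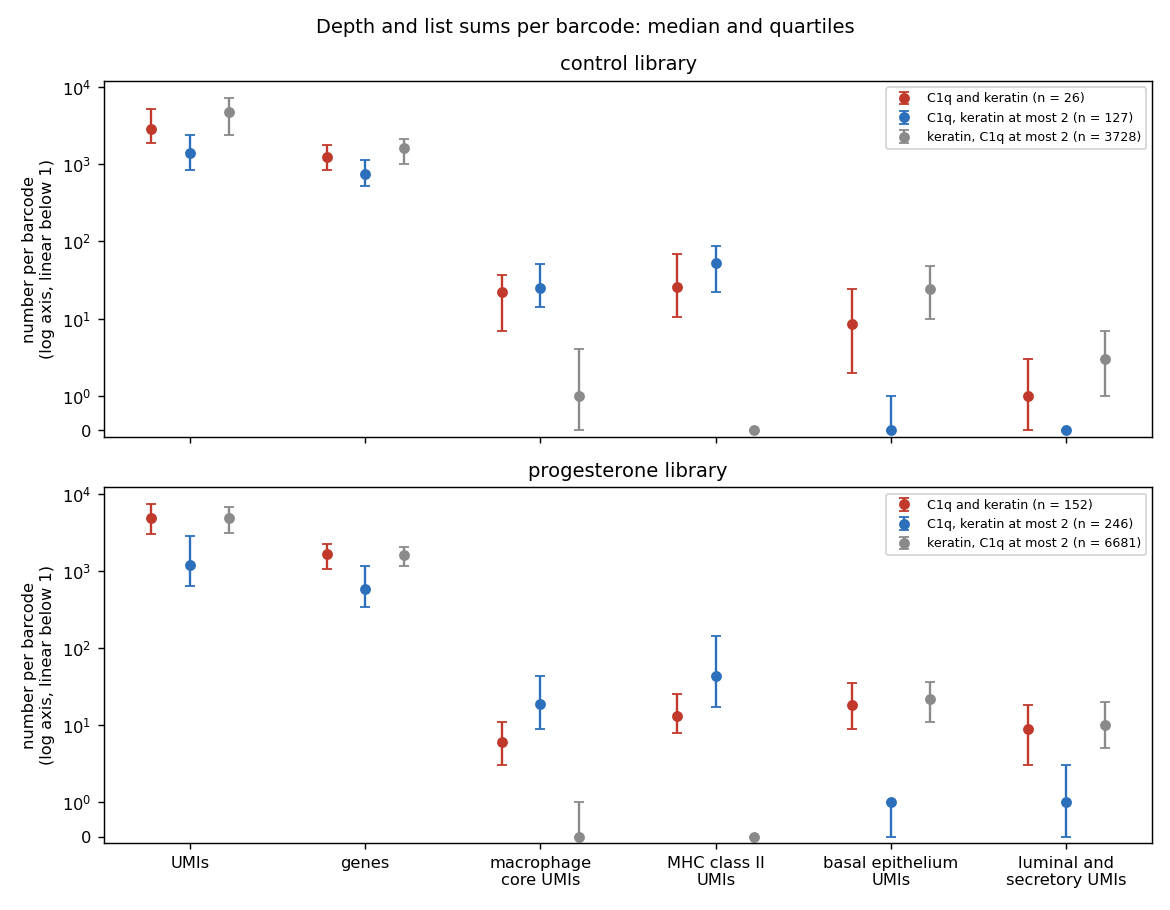
Points are medians and bars the lower and upper quartiles over barcodes of total UMIs, genes detected and the summed UMIs of 4 gene lists, on a log axis that is linear below 1, for double-positive (red), C1q (blue) and keratin (grey) barcodes. In the progesterone library red lies on grey for UMIs, genes and epithelial lists and between blue and grey for macrophage core and MHC class II RNA.

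Double-positive barcodes varied widely among themselves. In control, 11 had 3 to 9 keratin UMIs, with medians of 1819 UMIs and 35 core UMIs; 10 had 10 to 99, with 4376 and 10.5; and 5 had 100 or more, with 5460 and 14. In progesterone, 43 had 3 to 9, with medians of 2111 UMIs and 7 core UMIs; 96 had 10 to 99, with 5014 and 5; and 13 had 100 or more, with 10026 and 5. Keratin load therefore went with total depth in both libraries. Across the 26 control barcodes the rank correlation of keratin with total UMIs was 0.75 and across the 152 progesterone barcodes 0.64, while C1q and total UMIs had −0.07 and −0.05. C1q went with the core list (0.71 and 0.69) and keratin with the basal list (0.84 and 0.85), and C1q with keratin had −0.28 and −0.06. Keratin UMIs count toward the total, and the rule cuts both C1q and keratin at 3 UMIs. Barcodes of 1 library also share its depth and free RNA, so these correlations are given with no p.

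In both classes, barcodes with more C1q UMIs held more macrophage RNA, but the classes did not match at low C1q in control. There, barcodes with 3 to 5 C1q UMIs had medians of 4 core and 4 MHC class II UMIs when double-positive (n = 6, Cd74 in 50% of them), and 14 and 19 when keratin was at most 2 (n = 15, Cd74 in all 15). In progesterone, barcodes with 3 to 5 C1q UMIs had a median of 4 core and 10 MHC class II UMIs when double-positive (n = 85), and 5 and 11 when keratin was at most 2 (n = 59). Of these 59 barcodes 32.2% held the epithelial gene Epcam, against 0 of the 15 in control, so they were themselves not free of epithelial RNA. With 6 to 19 C1q UMIs the medians were 9 and 23 (n = 57) against 14 and 34 (n = 95). With 20 or more they were 53.5 and 178.5 (n = 10) against 48 and 163.5 (n = 92). Only these 10 progesterone barcodes had the C1q content that 92 of 246 C1q barcodes had, and their median depth was 6560.5 UMIs against 2298. In control 9 of 26 double-positive barcodes had 20 or more C1q UMIs, with median core sums of 46 against 56 in 47 C1q barcodes.

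As counts per 1000000 UMIs (CPM), macrophage genes were lower in double-positive than in C1q barcodes. The CPM of a gene falls when other RNA is added to a barcode, so UMIs per barcode are given as well. Genes with at least 20 UMIs over both classes were compared, and past 2-fold lower were 24.8% of 2296 genes in control and 17% of 6613 in progesterone. Of 15 core genes, all with enough UMIs, 14 were past 2-fold lower in control (median log2 ratio −1.77, all genes −0.21) and 15 in progesterone (−2.99, all genes −0.04). MHC class II genes were lower in 7 of the 7 that had enough UMIs, of 8 listed, in both libraries (median −1.81 and −3.07). Csf1r, the receptor for macrophage growth factor, had 1.00 UMI per double-positive barcode (0.653 to 1.47) and 1.86 per C1q barcode (1.63 to 2.11) in control, and 0.322 (0.238 to 0.426) and 1.02 (0.902 to 1.16) in progesterone. Tyrobp, an adaptor of myeloid receptors, had 4.85 and 6.81 in control and 1.89 and 5.70 in progesterone. Cd74 had 22.1 and 32.1 UMIs per barcode in control and 13.5 and 43.4 in progesterone, against 0.160 and 0.221 in keratin barcodes. H2-Ab1, an MHC class II beta chain, had 7.73 and 13.0 in control and 4.99 and 16.0 in progesterone, against 0.0571 and 0.0775 in keratin barcodes. Macrophage RNA per barcode was thus lower than in C1q barcodes and far above keratin barcodes in both libraries, with the double-positive barcodes of progesterone furthest from their C1q barcodes. Keratin barcodes are capped at 2 C1q UMIs, and C1q went with macrophage RNA, so the rule itself favours the order against keratin barcodes. Summed over the core list, double-positive barcodes had 0.719 times (0.662 to 0.779) the UMIs per barcode of C1q barcodes in control and 0.339 times (0.321 to 0.357) in progesterone. Over barcodes of at least 2000 UMIs the ratios were 0.364 and 0.203, and in progesterone it was 0.213 under the stricter gene and mitochondrial limits and 0.502 with at least 6 C1q UMIs.

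Taken per C1q UMI instead, the macrophage genes of both classes lay close together. For every 100 C1q UMIs, double-positive barcodes held 160 core UMIs and C1q barcodes 173 in control, a ratio of 0.924 (0.851 to 1.00). In progesterone the values were 114 and 131, a ratio of 0.869 (0.824 to 0.915). The ratio of single core genes was within 2-fold for 15 of 15 in control and 14 of 15 in progesterone (medians 0.866 and 0.849), and for 7 of 7 MHC class II genes in both libraries (0.852 and 0.801). Over all genes tested on this scale, 63.4% in control and 91.6% in progesterone were past 2-fold higher and 2.22% and 1.33% past 2-fold lower. C1q UMIs also chose the barcodes, and the part of that choice in ratios below 1 was not tested.

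**Figure D3:**
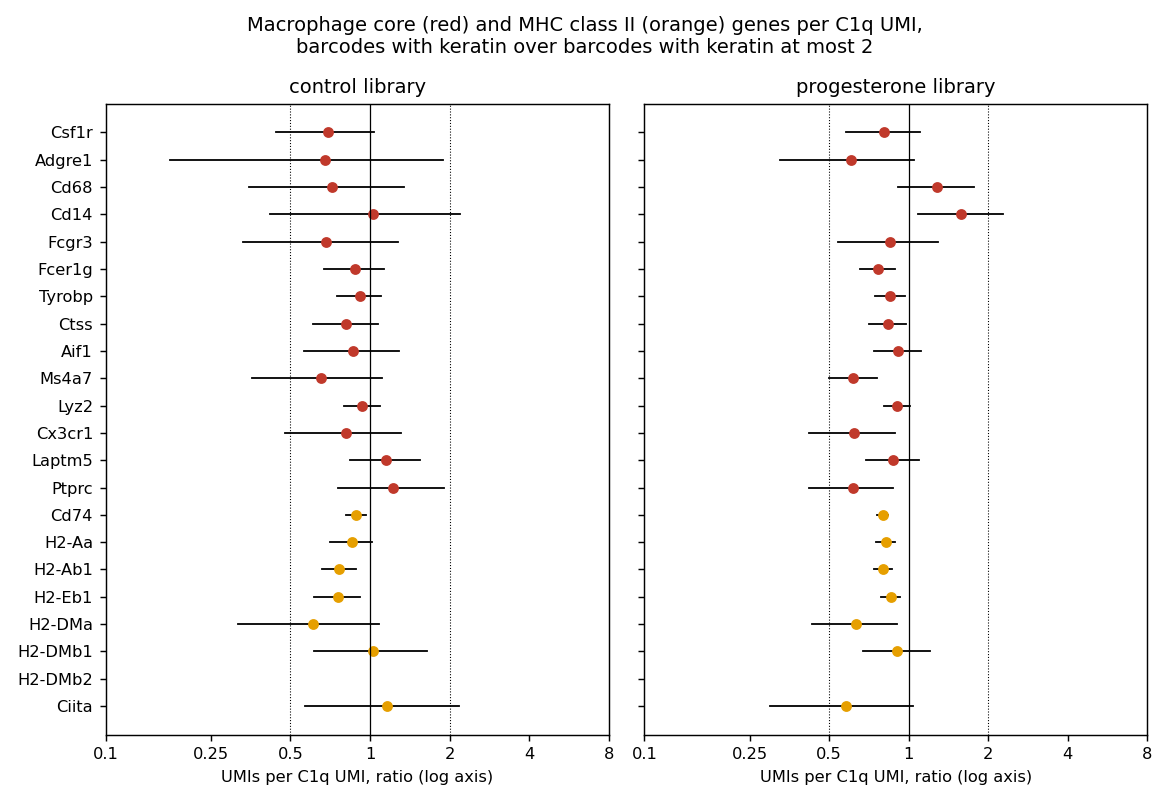
Each point is the ratio, on a log axis, of a gene's UMIs per C1q UMI in double-positive over C1q barcodes, with its exact 95% interval, for 14 macrophage core (red) and 7 MHC class II (orange) genes with at least 20 UMIs; dotted lines mark 2-fold. The points shown lie between the dotted lines in both libraries; H2-DMb2 had too few UMIs, and 1 core gene that was past 2-fold higher in progesterone is not shown.

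The 10 genes lowest in double-positive against C1q barcodes by CPM, with rule genes, mitochondrial and ribosomal protein genes left out, named some RNA that was low even per C1q UMI. In progesterone these were Retnla, Retnlg, Fn1, Ccl8, H2-M2, Il1b, Lair1, Zeb2, Pf4 and Ccl12. Retnla, a secreted marker of alternatively activated macrophages, had 3 UMIs in 1 of 152 double-positive barcodes and 411 UMIs in 6 of 246 C1q barcodes, a CPM ratio of 0.00449 (0.000922 to 0.0132). The chemokine Ccl8 had 3 UMIs against 60, in 3 and 11 barcodes (0.0308, 0.00617 to 0.0943). The inhibitory receptor Lair1 had 6 against 80, in 4 and 49 barcodes (0.0461, 0.0164 to 0.105), and per C1q UMI its ratio was 0.311 (0.111 to 0.708). Zeb2, a transcription factor of myeloid cells, had 14 against 141 UMIs, in 10 and 66 barcodes, with a ratio per C1q UMI of 0.412, and the cytokine Il1b had 18 against 179, with 0.418. Retnla and Ccl8 RNA thus came from few C1q barcodes, whereas Lair1, Zeb2 and Il1b came from 49, 66 and 59 of them.

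In control the 10 lowest genes were Hbb-bs, Ccl17, Hba-a2, Hba-a1, Selenop, Cst3, Trf, H2-Ab1, H2-Eb1 and Cd74. The haemoglobin genes rested on 1 C1q barcode, which held 98.5% of the class's Hbb-bs UMIs. Ccl17, a chemokine of dendritic cells and macrophages, had no UMI in 26 double-positive barcodes and 127 UMIs in 9 C1q barcodes, at least 20.3-fold lower against a floor of 3 counts over the class. Selenop, a secreted selenoprotein, had 11 against 199 UMIs (CPM ratio 0.116, 0.0567 to 0.211), and Trf, which encodes the iron carrier transferrin, 3 against 68 (0.0922, 0.0186 to 0.281). Cst3, a protease inhibitor rich in macrophages and dendritic cells, had 76 against 761 (0.209, 0.163 to 0.264). Per barcode Cst3 had 2.92 UMIs in double-positive and 5.99 in C1q barcodes, and Selenop 0.423 and 1.57. Fewer macrophages per barcode class, less RNA per macrophage and other RNA added to the barcode cannot be told apart in these CPM ratios.

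Epithelial RNA beyond Krt5 and Krt14 came with the keratins. By CPM against C1q barcodes, past 2-fold higher were 7.58% of all genes in control and 12.5% in progesterone. Of 13 basal genes 5 had enough UMIs in control and 3 of these were past 2-fold higher (median log2 ratio 5.01); in progesterone 11 had enough and 10 were higher (2.33). Of 18 suprabasal genes, 11 of 12 with enough UMIs were higher in control (4.76) and 14 of 15 in progesterone (3.02). A gene enters here mostly through the class where it is high, so these counts describe the genes and are no support for them. Krt15, a keratin of basal progenitor cells, had 3.69 UMIs per double-positive and 0.0315 per C1q barcode in control, and 10.8 and 0.309 in progesterone. Trp63, the master transcription factor of stratified epithelium, had 5 and 0 UMIs in control and 98 and 3 in progesterone.

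The 10 genes highest against C1q barcodes, a contrast the rule itself made, were in progesterone Dmkn, Psca, Krt17, 4631405K08Rik, Krt15, Krt6a, Lgals7, Spink5, Ptn and Krtdap. Dmkn, a secreted product of stratified epithelium, had 259 UMIs in 47 double-positive barcodes and 3 in 3 C1q barcodes (CPM ratio 53.1, 18.0 to 259). Lgals7, a galectin of squamous epithelium, had 836 in 104 and 37 in 33 barcodes (13.9, 10.0 to 19.9). Psca rested on 1 barcode, which held 98.7% of its 300 UMIs. In control they were Dmkn, Lgals7, Krt17, Lcn2, Ly6d, Wfdc18, Hspb1, Krt15, Fxyd3 and Urah. Lgals7 had 349 UMIs in 13 double-positive barcodes and 13 in 11 C1q barcodes there (56.1, 32.4 to 106). Dmkn, Lgals7, Krt17 and Krt15 stood in both lists.

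Against keratin barcodes most listed epithelial genes of the progesterone library differed by less than 2-fold. In that comparison 6.08% of 12986 genes were past 2-fold higher and 11.7% past 2-fold lower by CPM. All 13 basal genes, 16 of 18 suprabasal genes and all 12 luminal and secretory genes were within 2-fold, with median log2 ratios of −0.20, −0.09 and 0.15 beside 0.02 for all genes. Per keratin UMI, where 7.44% of all genes were past 2-fold higher and 10.6% lower, the same counts of basal, suprabasal and luminal genes lay within 2-fold. Per 100 keratin UMIs the basal list had 57.3 UMIs in double-positive and 60.7 in keratin barcodes, a ratio of 0.945 (0.914 to 0.976), and the suprabasal list 70.0 and 75.6 (0.926, 0.899 to 0.954). Krt10, a keratin of cells that leave the basal layer, was one of the 2 suprabasal genes past 2-fold lower, with 0.355 UMIs per double-positive and 0.822 per keratin barcode. Some genes outside these lists were also past 2-fold lower by CPM. Among them were Prap1 (ratio 0.143, 0.0714 to 0.257), Lcn2 (0.209, 0.130 to 0.321) and Sprr2f (0.373, 0.251 to 0.533). Above keratin barcodes stood 13 of 15 core and 7 of 7 MHC class II genes (median log2 ratios 4.26 and 5.70), a contrast the rule itself favours. Cd74 was 60.0-fold (56.1 to 64.2) and Ms4a7, a membrane protein of macrophages, 75.5-fold higher (54.5 to 105).

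The control library differed from that pattern. There 16.2% of 11955 genes were past 2-fold higher and 34.5% past 2-fold lower than in keratin barcodes, and 3 of 13 basal, 11 of 18 suprabasal and 11 of 12 luminal and secretory genes were past 2-fold lower. Genes entered mostly through the 3728 keratin barcodes, a gene with no UMI in the 26 double-positive ones counts as lower, and 1 basal, 2 suprabasal and 7 luminal and secretory genes had none. Summed over each list, CPM in double-positive barcodes was 0.558 times (0.505 to 0.615), 0.457 times (0.433 to 0.482) and 0.327 times (0.256 to 0.411) that of keratin barcodes. Medians of log2 ratios are not used in this comparison, since the 0.5 counts added weigh most in the smaller class. Per keratin UMI, 36.7% of all genes were past 2-fold higher and 30.1% lower, and 7 of 13 basal, 13 of 18 suprabasal and 3 of 12 luminal genes lay within 2-fold. Per 100 keratin UMIs the basal list had 28.7 and 29.3 UMIs, a ratio of 0.979 (0.887 to 1.08). The suprabasal list had 95.9 and 119 (0.802, 0.760 to 0.846). Core and MHC class II genes were past 2-fold higher for 11 of 13 and 7 of 7 genes with enough UMIs, again a contrast the rule favours.

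The RNA of the double-positive barcodes was next set against a sum of 2 parts: a keratin part, which gives each keratin UMI the RNA it has in keratin barcodes, and a C1q part, which gives each C1q UMI the RNA it has in C1q barcodes. In progesterone the parts summed to 5595 UMIs per barcode, 13.8% from the C1q part, and 5226 were observed, a ratio of 0.934. The observed amount was 0.796 of the sum for core genes, 0.799 for MHC class II, 0.923 for basal, 0.907 for suprabasal and 0.907 for luminal and secretory genes. In control the parts summed to 3603 UMIs, 36.9% from the C1q part, and 3991 were observed, a ratio of 1.11. The ratios there were 0.882, 0.839, 0.951, 0.782 and 0.562 for the same lists. Free RNA, present in both references, is counted in both parts, and some C1q barcodes of progesterone also held luminal keratins.

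**Figure D4:**
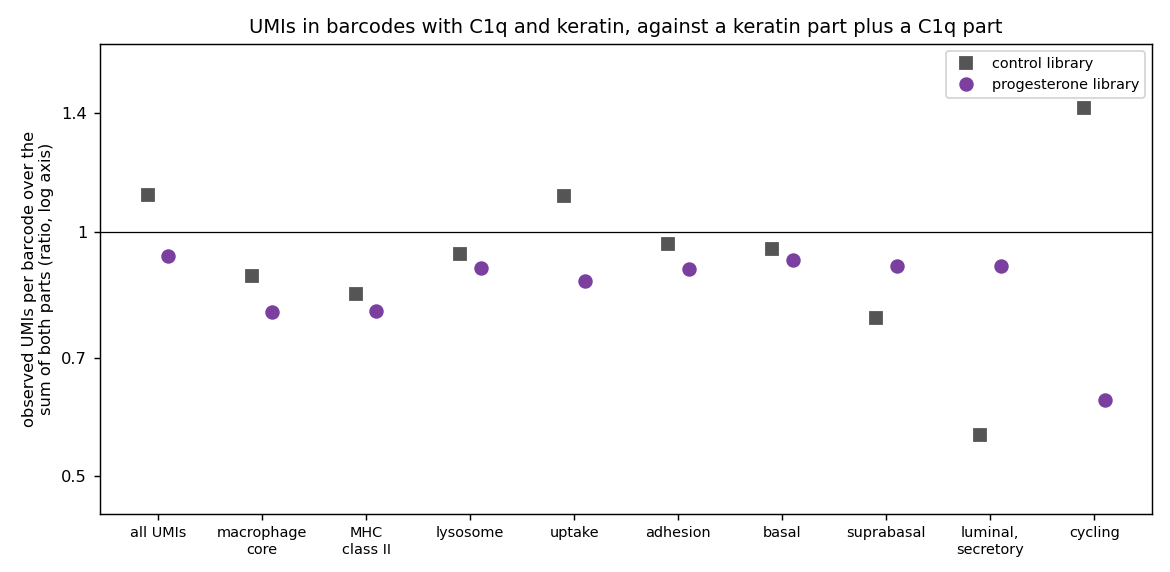
For all UMIs and 9 gene lists, the observed UMIs per double-positive barcode are divided by the sum of the keratin part and the C1q part (ratio on a log axis; squares control, circles progesterone). In progesterone the lists lie between 0.796 and 0.923 except cycling genes at 0.620; in control the range runs from luminal and secretory genes at 0.562 to cycling genes at 1.42.

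Genes of uptake and digestion were read for a mark of engulfed epithelium. The list of receptors and bridging proteins for dying cells and other cargo had 9 of 17 measured genes with enough UMIs in control and 10 in progesterone. Against C1q barcodes by CPM 1 was past 2-fold higher and 5 lower in control, and 2 were higher and 6 lower in progesterone (medians −0.96 and −2.00). Per barcode the list had a mean of 3.58 UMIs in double-positive and 3.20 in C1q barcodes in control, and 2.43 and 2.10 in progesterone. The receptor Axl, which binds dying cells through Gas6, had 0.385 UMIs per double-positive and 0.795 per C1q barcode in control, and 0.151 and 0.313 in progesterone. The mannose receptor Mrc1 had 0.192 and 0.268 in control and 0.0789 and 0.232 in progesterone. Both genes past 2-fold higher in progesterone were bridging proteins: Mfge8 had 0.776 UMIs per double-positive and 0.110 per C1q barcode, and Gas6 0.467 and 0.0650. Keratin barcodes held Mfge8 at 0.793 and Gas6 at 0.574 UMIs per barcode, above the double-positive values. Mertk, a receptor of the same family as Axl, had 2 UMIs in control and 1 in progesterone, Msr1 4 and 7, and Cd163, Timd4 and Marco none. The list as a whole stood at 1.10 of the 2-part sum in control and 0.869 in progesterone.

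Of 16 lysosome genes 14 had enough UMIs, and they were past 2-fold lower in 12 of 14 in control and 11 of 14 in progesterone by CPM against C1q barcodes (medians −1.45 and −2.09), and none was past 2-fold higher. Per barcode the list had a mean of 24.6 UMIs in double-positive and 28.7 in C1q barcodes in control, and 13.7 and 18.8 in progesterone. Psap, the precursor of lysosomal activator proteins, had 6.12 UMIs per double-positive, 7.38 per C1q and 1.03 per keratin barcode in control, and 2.06, 3.59 and 1.03 in progesterone. The protease Ctsb had 1.34, 2.23 and 0.554 in progesterone. Observed lysosome RNA was 0.938 of the 2-part sum in control and 0.902 in progesterone. Against the 2-part sum only the uptake list in control, at 1.10, lay above 1 among the uptake and lysosome lists of both libraries. All UMIs together also lay above 1 in control, at nearly the same ratio, while the core, MHC class II, basal, suprabasal and luminal lists lay below 1. Whether uptake had a part in this was not tested. RNA levels do not show whether a cell had taken up another.

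Adhesion genes of leukocytes and epithelium were read for attached cells. Of the 13 genes, 7 had enough UMIs in control, with none higher and 3 lower by CPM against C1q barcodes, and 10 in progesterone, with 1 higher and 5 lower (medians −0.87 and −1.08). Per barcode the list had a mean of 3.15 UMIs in double-positive and 1.94 in C1q barcodes in control, and 3.52 and 1.98 in progesterone. Leukocyte integrins were sparse: Itgb2, the shared beta chain, had 2 UMIs in control and 5 in progesterone, and Itgam 4 and 7. Against C1q barcodes Itgb2 stood at 0.0769 and 0.283 UMIs per barcode in control and 0.0329 and 0.179 in progesterone. The junction genes of the list were Cdh1, Cdh3, Jup and Ctnnb1. Jup, which encodes plakoglobin of desmosomes, had 0.862 UMIs per double-positive, 0.126 per C1q and 0.943 per keratin barcode in progesterone, and Cdh1, which encodes E-cadherin, had 0.336, 0.142 and 0.381. In control Jup had 0.500, 0.0472 and 1.22, and Cdh1 0.269, 0.0315 and 0.398. The list stood at 0.967 of the 2-part sum in control and 0.901 in progesterone. Tissue pieces held together by their junctions and 2 cells captured in 1 droplet give the same RNA and cannot be told apart by these counts.

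Most Langerhans and dendritic genes were absent or sparse in double-positive barcodes, and Epcam stood near its level in keratin barcodes per keratin UMI. Cd207, at chr6:83671215-83677857 on the minus strand, had no UMI in 26 control and 152 progesterone double-positive barcodes, which allows shares of barcodes with a UMI of up to 11.5% and 1.97% (3 counts). Thinned to 2000 UMIs it was again in 0 of 15 and 0 of 127. The gene was nearly silent in both libraries, with 2 UMIs in control and 1 in progesterone, all in C1q barcodes. Epcam, which Langerhans cells share with epithelium, had 0.692 UMIs per double-positive, 0.0315 per C1q and 1.65 per keratin barcode in control, and 2.82 per double-positive and 0.854 per C1q barcode in progesterone. Per keratin UMI its ratio to keratin barcodes was 0.954 (0.565 to 1.51) and 0.997 (0.904 to 1.10). Itgax, an integrin of dendritic cells and some macrophages, had 0.385 UMIs per double-positive and 0.331 per C1q barcode in control, and 0.0395 and 0.215 in progesterone. Cd24a was in 8 of 26 double-positive, 6 of 127 C1q and 1974 of 3728 keratin barcodes in control. In progesterone it was in 37 of 152, 37 of 246 and 2274 of 6681. Ccr7, Flt3, Xcr1, Clec9a, Cd209a, Ccl22 and Itgae had no UMI in double-positive barcodes of either library, Mgl2 was in 4 and 2 of them and Zbtb46 in 0 and 1. Of 13 genes in the list 3 had enough UMIs in control (1 higher and 2 lower, median −0.95) and 4 in progesterone (0 higher and 2 lower, median −2.00). The control list has no stable direction, since its median was 0.65 with the mean of per-barcode CPM and its summed ratio 1.12 (0.759 to 1.64).

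Median doublet scores were higher in double-positive barcodes, by little in control, although a larger share of them had the highest scores there than in progesterone. The caller called very few barcodes at its preset rate. At that rate the median score was 0.064 in double-positive, 0.055 in C1q and 0.059 in keratin barcodes in control. In progesterone the medians were 0.1, 0.069 and 0.067. Scrublet, which scores each barcode against simulated pairs of barcodes, called 3 of 4760 control and 2 of 9221 progesterone barcodes at an expected rate of 0.06, too few for it to have worked. Among double-positive barcodes 1 of 26 and 0 of 152 were called. At an expected rate of 0.10, 7 of 26 (26.9%, 11.6 to 47.8) and 5 of 152 (3.29%, 1.08 to 7.51) were called, against 18 of all 4760 and 157 of all 9221 barcodes. The highest 6% of scores (with ties, 6.93% and 6.19% of barcodes) held 9 of 26 double-positive barcodes in control (34.6%, 17.2 to 55.7) and 19 of 152 in progesterone (12.5%, 7.70 to 18.8), beside 5.51% and 6.10% of C1q barcodes and 7.67% and 6.53% of keratin barcodes. Without those barcodes the double-positive share of C1q-positive barcodes was 12.4% in control and 36.5% in progesterone, and the depth ratio to C1q barcodes 1.38 and 3.84.

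Keratin RNA in barcodes of other cell types was read for comparison, and the level of free RNA was not measured. Among barcodes with at least 3 UMIs of 3 neutrophil genes (Csf3r, Cxcr2 and Retnlg) and at most 2 of C1q, 107 of 318 in control (33.6%, 28.5 to 39.1) and 65 of 407 in progesterone (16.0%, 12.5 to 19.9) had at least 3 keratin UMIs. Fibroblast barcodes (Col1a1, Col1a2 and Dcn) had 14 of 84 (16.7%) and 24 of 138 (17.4%), endothelial barcodes (Pecam1, Cdh5 and Emcn) 0 of 20 and 4 of 38 (10.5%), and T cell barcodes (Cd3d, Cd3e and Cd3g) 1 of 3 and 1 of 8. Median depths were 664 and 850 UMIs for neutrophil, 964 and 2839 for fibroblast, 1198 and 2660 for endothelial, and 1522 and 2406 for C1q-positive barcodes. Barcodes that reached 3 keratin UMIs held medians of 30 and 10 of them in neutrophil and 6 and 19 in fibroblast barcodes. The medians were 12 and 27 in C1q-positive barcodes, and 4.5 in endothelial ones of progesterone. The control share of C1q-positive barcodes, 17.0%, was below that of neutrophil and close to that of fibroblast barcodes. The progesterone share of 38.2% was above all 3 of its larger references. At 2000 UMIs, 76 of 83 neutrophil barcodes in control (91.6%) and 35 of 45 in progesterone (77.8%) had keratin, against 28.3% and 50.2% of C1q-positive ones, but only deep neutrophil barcodes enter there, and 235 and 362 shallower ones were left out. Fibroblast barcodes had 3 of 10 and 19 of 91 (20.9%), and endothelial ones 0 of 3 and 1 of 30 (3.33%). Keratin RNA was thus also found in barcodes of other cell types, and its share differed between cell types and libraries.

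**Figure D5:**
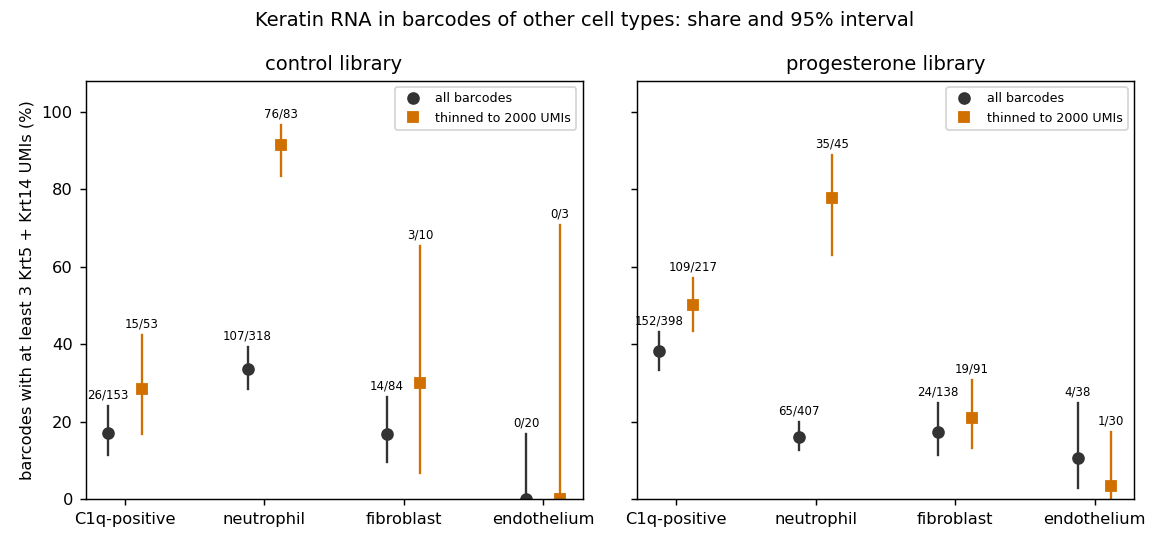
The share of barcodes with at least 3 Krt5 and Krt14 UMIs (y axis, percent) is shown for C1q-positive, neutrophil, fibroblast and endothelial barcodes, over all barcodes (circles) and after thinning to 2000 UMIs (squares), with exact 95% intervals and counts. The C1q-positive share of 38.2% in progesterone lies above the other circles of that library, and neutrophil barcodes lead after thinning in both.

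C1q RNA was rarer than keratin RNA in neutrophil and fibroblast barcodes. In both libraries its share was nevertheless higher in neutrophil than in keratin-positive barcodes, with overlapping intervals. Keratin-positive barcodes had 0.693% in control and 2.22% in progesterone. The share was also higher in the few endothelial and T cell barcodes of progesterone, and lower in fibroblast barcodes of both libraries. At least 3 C1q UMIs were found in 6 of 324 neutrophil barcodes in control (1.85%) and 13 of 420 in progesterone, in 0 of 84 and 1 of 139 fibroblast, in 0 of 20 and 2 of 40 endothelial and in 0 of 3 and 1 of 9 T cell barcodes. Luminal epithelial barcodes, with at least 3 Krt8 and Krt18 UMIs and at most 2 of Krt5 and Krt14, had 0 of 138 in control, which allows up to 2.17% (3 counts), and 24 of 1167 in progesterone (2.06%, 1.32 to 3.04). By their limits these 24 are also among the 246 C1q barcodes of progesterone. The luminal and secretory list had a median of 1 and a mean of 22.4 UMIs in that class. Thinned to 2000 UMIs, 60 of 5906 keratin-positive (1.02%, 0.776 to 1.31) and 4 of 936 luminal barcodes (0.427%, 0.117 to 1.09) of the progesterone library had 3 C1q UMIs, against 2.22% and 2.06% before thinning.

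Markers of other cell types were mostly low. Neutrophil genes were lower than in C1q barcodes by CPM in 3 of 3 genes with enough UMIs in control and 6 of 6 in progesterone. Fibroblast genes had 0 UMIs in control and 3 in progesterone over the 6 listed, endothelial genes 0 and 15, smooth muscle genes 0 and 5, T and NK cell genes 6 and 16, and B cell genes 13 and 23. Of T and NK cell genes 1 had enough UMIs in each library and was lower in both (log2 ratios −4.82 and −1.81), but the control median was 2.65 with no minimum other than 1 UMI; of B cell genes 1 had enough and was lower in progesterone (−3.39) and within 2-fold in control (−0.82). The erythrocyte list, lower in 3 of 3 and 5 of 5 genes, had 2 UMIs in control and 6739 in progesterone, where 1 barcode held 76.0% of the Hbb-bs UMIs. In control 1 C1q barcode held 443 of the 453 UMIs of its class, and in progesterone the median of −2.45 became 4.44 under limits of 500 genes and 10% mitochondrial UMIs. Cycling genes stood at 1.42 of the 2-part sum in control, with 70 UMIs in all, and 0.620 in progesterone, with 140. Genes of dissociation stress were past 2-fold higher than in C1q barcodes in 0 of 3 genes in control and 3 of 6 in progesterone, and stood at 0.835 and 0.842 of the sum. Genes of macrophage states were past 2-fold lower in 6 of 9 and 9 of 11 (median log2 ratios −1.43 and −3.69). Luminal and secretory genes were higher than in C1q barcodes in 3 of 3 in control and in 1 of 12 in progesterone, where 4 were lower (medians 3.39 and 0.04).

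Between the libraries, double-positive barcodes of progesterone held less macrophage and more secretory RNA by CPM. Over 5017 genes with enough UMIs, 17.6% were past 2-fold higher and 11.6% past 2-fold lower in progesterone, with a median log2 ratio of −0.10. Of 14 core genes 10 were lower and none higher (median −1.72), and the list's summed CPM was 0.332 times that of control (0.304 to 0.364). Of 7 MHC class II genes 5 were lower (median −1.10). In C1q barcodes of the same libraries the core list stood at 0.794 (0.766 to 0.823) and the MHC class II list at 1.22 (1.19 to 1.25), where 9.8% of 4560 genes were past 2-fold higher and 10.8% lower. Of 12 luminal and secretory genes 10 were higher in double-positive barcodes (median 4.28), and the list's summed CPM was 10.8 times that of control (8.55 to 13.8). In C1q barcodes, some of which also held luminal keratins in progesterone, 12 of 12 were higher (median 6.46). Their summed CPM was 144 times that of control (89.9 to 247). Muc5b, a gel-forming mucin of cervical mucus, had no UMI in control and 951 in 52 progesterone barcodes, at least 41.4-fold higher against the floor of 3 counts. Muc5b also had no UMI in control C1q barcodes and 1190 in 71 of progesterone, so both classes held it in progesterone. Lcn2, an iron-scavenging protein of inflamed epithelium, had 137 UMIs in 8 control and 21 in 9 progesterone barcodes (0.0200, 0.0120 to 0.0318), and 1 barcode held 57.7% of the control and another 57.1% of the progesterone UMIs. Fabp5, a fatty acid carrier of squamous epithelium and macrophages, had 7.62 and 1.45 UMIs per barcode (CPM ratio 0.145, 0.119 to 0.177), and in C1q barcodes its ratio was 0.124 (0.0913 to 0.166). Suprabasal genes were lower in 9 of 16 and higher in 2 (median −1.11), basal genes lower in 3 and higher in 3 of 11, and cycling genes lower in 5 of 5 (median −1.78). The mean over so few control barcodes, 26, is moved by single barcodes.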

How the data were processed

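Single-cell RNA was counted in 2 libraries of mouse cervix, 1 per group. The authors deposited filtered matrices of raw UMI counts per gene and barcode, per the file headers, made with Cell Ranger 3.0.2 and mm10, per the submitters' processing notes. Every deposited barcode had at least 500 UMIs. The table lists 31053 genes. Members, lists and comparisons were chosen with earlier results of these data known.

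CPM values were computed from the summed counts of each class in each library. Genes with at least 20 UMIs over both classes were compared, and a gene was past 2-fold by its CPM ratio, with 0.5 counts added for log2 ratios. Intervals are at 95%: Clopper-Pearson for shares, exact Poisson for levels and conditional binomial for ratios. UMIs remove copies of a molecule, and intervals cover counting error only. Folds against 0 used a floor of 3 counts per class. No test across groups was possible with 1 library each, and the labels name no separate animals within a library. The interval code was tested on simulated data. Named genes were the 10 highest and 10 lowest in double-positive over C1q barcodes by the interval bound nearest to 1, with at least 50 UMIs, and genes of the 19 fixed lists. Clec7a of the uptake list was not analysed here, and single values of 1 core gene are not reported here. Doublets were scored with Scrublet in scanpy 1.11.5 and kept. Python 3.11.15, numpy 2.4.6, scipy 1.17.1 and pandas 2.3.3 were used. Alternatives were other keratin, C1q, gene and mitochondrial limits, other thinning depths, leaving out high doublet scores, shared barcodes or shallow barcodes, and other scalings.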

Additional observations from a re-analysis of the deposited data

How the results depend on the processing

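No paired analysis was possible because each group has 1 library. Of 260 alternative values of list medians, 139 stayed within the spread of the reported value and 121 did not. The sign changed in 10 of the 260, and 2 of these had a reported median past 2-fold: the T and NK cell median in control became 2.65 with no minimum other than 1 UMI, and the erythrocyte median in progesterone 4.44 under stricter limits (500 genes or more, 10% mitochondrial UMIs or less). Of the other 68 values 37 stayed and 31 moved, with none reversed; the causes were not tested. The double-positive share of C1q-positive barcodes moved to 9.80% in control and 27.4% in progesterone with at least 10 keratin UMIs, to 26.4% in progesterone with at least 6 C1q UMIs, to 49.0% in progesterone with the stricter gene and mitochondrial limits, and to 28.3% and 58.5% over barcodes of at least 2000 UMIs. The share was above control in progesterone under each alternative run.

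The depth ratio to C1q barcodes moved to 3.26 and 4.61 with at least 10 keratin UMIs, to 1.78 in control with at least 6 C1q UMIs, to 2.39 and 2.45 with the stricter limits, to 1.38 in control without the highest doublet scores and to 1.64 and 1.66 over barcodes of at least 2000 UMIs. The ratio of core UMIs per barcode moved to 0.506 and 0.263, to 0.797 and 0.502, to 0.213 in progesterone, to 0.247 in progesterone and to 0.364 and 0.203 under the same alternatives in that order. Keratin in neutrophil barcodes was 73.7% and 31.9% when thinned to 1000 UMIs. With at least 10 keratin UMIs it was 73.5% and 55.6% when thinned to 2000 UMIs, and 24.5% and 8.11% with no thinning. In progesterone fibroblast barcodes it was 12% when thinned to 1000 UMIs, and 9.89% with at least 10 when thinned to 2000. In progesterone endothelial barcodes it was 0% with at least 10. Called doublets moved to 26.9% and 3.29% at the higher expected rate. Leaving out high doublet scores, shared barcodes and shallow barcodes was chosen after seeing the data. Control values rest on 26 barcodes.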

Other observations

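Apoe, a lipid carrier of macrophages that other cells can also make, had 18.3 UMIs per double-positive, 27.4 per C1q and 9.00 per keratin barcode in the progesterone library, and 5.54, 8.64 and 1.67 in control.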
